A study of Mus musculus with 8 samples.

Results

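The genes described here encode the machinery that joins and divides mitochondria: Mfn1, Mfn2 and Opa1 for fusion, and Dnm1l, Mff, Fis1, Mief1, Mief2 and Mtfp1 for fission. They were taken by gene symbol from the table of the whole series, and all 9 were found among its 14012 genes. RNA sequencing was done on quadriceps femoris (QF), a thigh muscle, of 4 mice labelled as skeletal muscle-specific Grpel1 knockouts (Grpel1 smk -/-) and of 4 Grpel1 flox/flox controls, each library from a separate animal. GRPEL1 is a nucleotide exchange factor of the mitochondrial HSP70, which pulls proteins into the matrix. Both groups carried the floxed Grpel1 alleles. In the knockout line, Cre-ERT2 was driven by the human skeletal actin promoter, so deletion was directed at muscle fibres and not at the other cells of the muscle, and tamoxifen was given from an age of 5 weeks. Whether the 4 control mice received tamoxifen, and the age of each mouse at sampling, are not given in the sources used here.

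Mitochondria form a network that is remodelled by fusion and fission. The mitofusins MFN1 and MFN2 join outer membranes, and OPA1 joins inner membranes and shapes cristae, with its forms set by the proteases OMA1 and YME1L. Fission is driven by DRP1, the product of Dnm1l, a dynamin-family GTPase recruited from the cytosol by the outer-membrane proteins MFF, MIEF1 (MiD51), MIEF2 (MiD49) and FIS1, while MTFP1, also called MTP18, is an inner-membrane protein linked to fission. Skeletal muscle holds much of its mitochondrial mass in rows between myofibrils, and MFN2 is abundant there.

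Upstream sequences are shown first for 4 genes on which the comparison turns. Mfn1 and Mtfp1 had the largest decreases, Opa1 is the inner-membrane fusion gene, and Mief1 was the member that was higher. Each line gives the 250 bases before the RefSeq start (GRCm38.p6), 5′ to 3′ in the sense of the gene, from chr3:32529232-32529481 (plus strand) for Mfn1, chr16:29579084-29579333 (plus) for Opa1, chr11:4095432-4095681 (minus) for Mtfp1 and chr15:80233830-80234079 (plus) for Mief1. Capitals mark a match to the palindromic binding motif of NRF1, a transcription factor of nuclear genes for mitochondrial proteins, with 1 base on each side of it.
Mfn1: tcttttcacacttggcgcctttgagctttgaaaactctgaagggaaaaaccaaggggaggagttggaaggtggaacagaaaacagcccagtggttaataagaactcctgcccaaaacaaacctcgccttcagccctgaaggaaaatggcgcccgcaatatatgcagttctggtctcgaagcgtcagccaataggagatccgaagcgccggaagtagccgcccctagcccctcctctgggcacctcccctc
Opa1: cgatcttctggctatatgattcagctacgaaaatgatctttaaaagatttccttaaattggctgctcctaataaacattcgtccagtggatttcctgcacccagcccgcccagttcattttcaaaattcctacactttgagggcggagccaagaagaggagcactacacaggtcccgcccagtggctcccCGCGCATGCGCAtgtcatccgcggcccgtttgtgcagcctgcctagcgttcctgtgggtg
Mtfp1: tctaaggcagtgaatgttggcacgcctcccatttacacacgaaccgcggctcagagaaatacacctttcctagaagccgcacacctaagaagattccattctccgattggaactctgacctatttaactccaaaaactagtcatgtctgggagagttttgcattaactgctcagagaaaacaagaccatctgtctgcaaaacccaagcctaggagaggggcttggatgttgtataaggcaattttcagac
Mief1: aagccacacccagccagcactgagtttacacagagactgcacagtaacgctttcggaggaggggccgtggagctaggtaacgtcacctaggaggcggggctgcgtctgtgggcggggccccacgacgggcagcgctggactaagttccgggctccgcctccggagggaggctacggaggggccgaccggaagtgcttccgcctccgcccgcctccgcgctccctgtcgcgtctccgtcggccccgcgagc
Start windows of 250 bases before to 50 after were held for all 9 genes, 14 windows in all, and were searched for 3 motifs on both strands. The NRF1 motif, the capitals of the Opa1 line without their first and last base, was in 1 of the 14 windows, that of Opa1, where it begins at position -59 from the start, and in 0.971% of the 32851 windows of all genes. TGATGNAA, the composite ATF4-C/EBP motif, was in 0 of the 14 and in 3.97% of all windows. TCAAGGTCA, an oestrogen-related receptor motif, was in 0 of the 14 and in 0.423% of all windows. A match is a string of letters and not a measured binding site.

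Libraries held 16017565 to 18813042 counts in controls and 16424608 to 20361144 in those labelled knockout. Values are in CPM, the counts of a gene scaled to a common library size. Grpel1 itself (chr5:36465185-36474077) did not separate the groups, at 68.4 ± 3.04 CPM (SD, n = 4) in controls and 65.3 ± 6.11 (n = 4) in libraries labelled knockout, with a log2 fold change of -0.066 (SE 0.078, edgeR adjusted p = 0.487). A count over the whole gene cannot show the loss of single exons, so it does not check the labels, and every direction below is drawn between the groups as labelled. The paper reports reduced GRPEL1 protein in QF of knockout mice by immunoblot and immunostaining, which is a measure of protein and not of these libraries. The CPM are scaled by TMM, a method that sets the bulk of genes equal between libraries, and its factors were 0.747 to 0.844 in controls and 1.19 to 1.33 in libraries labelled knockout. The summed CPM of 8 muscle fibre markers was 190000 to 242000 in controls and 62200 to 89500 in libraries labelled knockout. Of these markers, 5 were lower and 1 was higher (Myh1, 5435 to 10007 and 11795 to 19510 CPM) by edgeR, beside 21.1% and 23.6% of all genes. Myh7, at a log2 fold change of 3.93, was among the 2 that did not pass. The sum is carried mostly by Myh4 and Acta1.

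Of the 9 fusion and fission genes, 5 were lower and 1 was higher in muscle labelled knockout, and 3 did not pass the test (edgeR quasi-likelihood test, adjusted p under 0.01 over all genes). Over all 14012 genes, 21.1% were lower and 23.6% higher by the same test, 44.7% in either direction. Mfn1, Mfn2, Opa1, Mff and Mtfp1 were the lower genes and Mief1 the higher one, while Dnm1l, Fis1 and Mief2 did not pass. With library totals alone as the scaling, 5 genes were called higher (Mff, Fis1, Dnm1l, Mief1 and Mief2) and 2 lower (Mfn1 and Mtfp1), and the sign of Opa1 flipped without passing the test. That scaling called 60.6% of all genes higher and 6.23% lower. DESeq2 called 6 of the 9 lower and 0 higher, beside 24.8% and 23.2% of all genes. The log2 fold changes of the 9 genes had a median of -0.42, beside 0.065 over all genes. By CPM, the groups did not overlap for 6 genes that were lower and 1 that was higher, beside 24.4% and 29% of all genes (53.4% in either direction), and they overlapped for Dnm1l and Mief2. An exact permutation test on the CPM of single genes, two-sided, gave p = 0.486 for Dnm1l, 0.857 for Mief2 and 0.0286 for each of the other 7, the smallest p that 4 against 4 libraries can give. In a bulk sample, fewer muscle fibres and less of an RNA per fibre cannot be told apart.

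**Figure D1:**
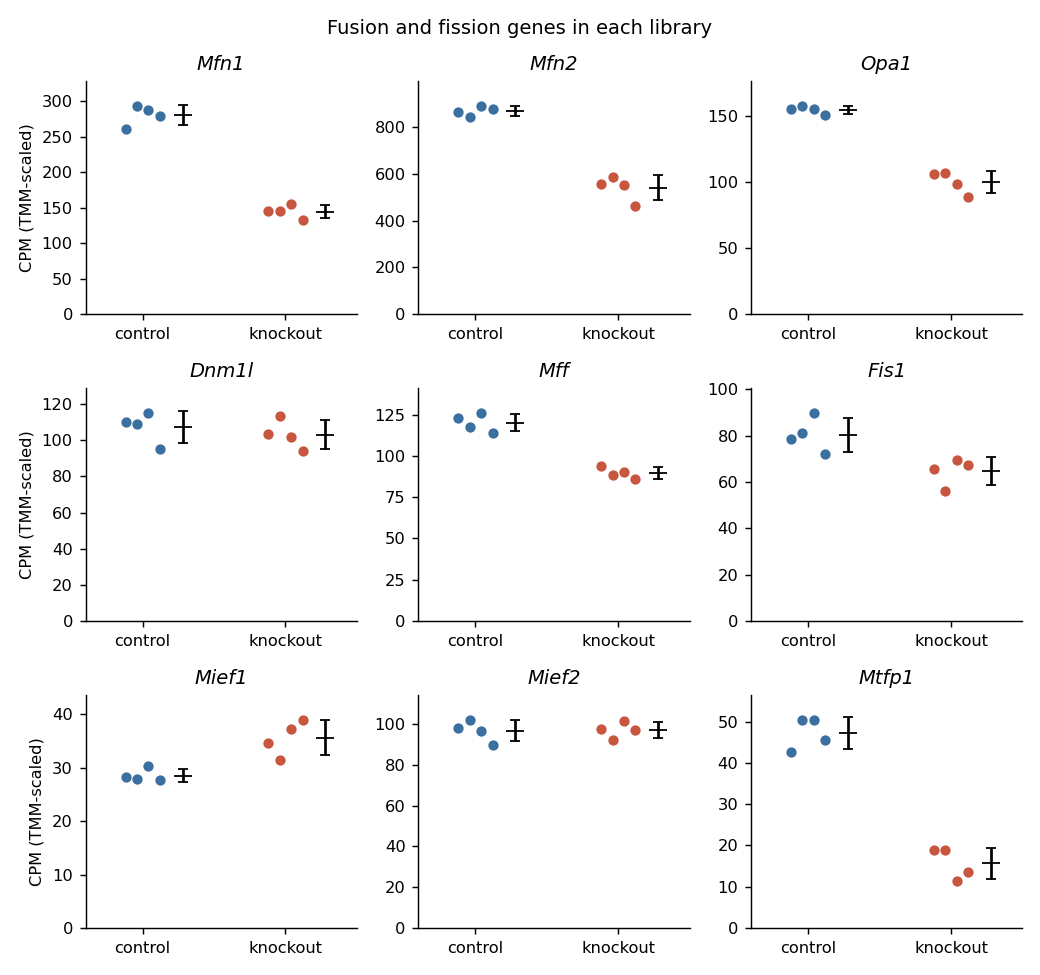
Each panel plots 1 gene, with its TMM-scaled CPM on the y axis (starting at 0) and 1 point per library, 4 control (blue) and 4 labelled knockout (red); the bar is the mean and the whiskers 1 SD. The groups stand apart for Mfn1, Mfn2, Opa1, Mff, Fis1, Mtfp1 (lower) and Mief1 (higher) and overlap for Dnm1l and Mief2. With library totals alone as the scaling, Mff, Fis1, Dnm1l, Mief1 and Mief2 are called higher, as are 60.6% of all genes. Under it, Opa1 is at 0.041 without passing the test.

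The mitofusins and Opa1, which together carry out fusion, were all lower under TMM scaling. Mfn1 (Entrez 67414, chr3:32529482-32579225, plus strand, GRCm38) was at 260.9, 293.6, 288.1 and 279.9 CPM in the controls and at 145.5, 145.2, 155.1 and 132.6 CPM in the libraries labelled knockout. The highest knockout value lay far under the lowest control value. Its mean fell by 48.5%, from 281 ± 14.3 to 145 ± 9.21 CPM (SD, n = 4 each), which is a log2 fold change of -0.96 (SE 0.073, 95% interval -1.12 to -0.79, edgeR adjusted p = 3.23e-06). Mfn1 stayed lower with library totals alone, at a log2 fold change of -0.29 (adjusted p = 0.00419).

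Mfn2 (Entrez 170731, chr4:147873586-147904909, minus strand), the more abundant mitofusin, was at 861.8, 844.2, 889.4 and 877.0 CPM in the controls and at 558.0, 588.3, 554.3 and 462.5 CPM in the libraries labelled knockout. The control libraries lay close together and the groups did not overlap. Mfn2 fell by 37.7%, from 868 ± 19.5 to 541 ± 54.4 CPM (SD, n = 4 each), which is a log2 fold change of -0.68 (SE 0.088, edgeR adjusted p = 1.01e-04). With library totals alone its log2 fold change was -0.015 (adjusted p = 0.882), so the call was lost.

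Opa1 (Entrez 74143, chr16:29579334-29654602, plus strand), the gene whose upstream sequence holds the NRF1 motif, was at 155.6, 157.8, 155.4 and 151.0 CPM in the controls and at 106.3, 107.2, 98.7 and 88.8 CPM in the libraries labelled knockout. The 4 controls were nearly level, and each library labelled knockout was below all of them. The mean of Opa1 fell by 35.3%, from 155 ± 2.87 to 100.3 ± 8.53 CPM (SD, n = 4 each), with a log2 fold change of -0.63 (SE 0.073, edgeR adjusted p = 4.99e-05). Library totals alone gave 0.041 (adjusted p = 0.651). The counts are per gene, and in this annotation Opa1 has 4 protein-coding transcripts, so the share of its splice forms is not seen here.

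On the fission side the recruited GTPase and its receptors did not move alike. Dnm1l (Entrez 74006, chr16:16312228-16359031, minus strand), which encodes DRP1, was at 110.1, 109.2, 115.2 and 95.1 CPM in the controls and at 103.6, 113.3, 101.7 and 93.9 CPM in the libraries labelled knockout. The groups overlapped, at means of 107 ± 8.63 and 103 ± 8.0 CPM (SD, n = 4 each). Dnm1l had a log2 fold change of -0.059 (SE 0.082, edgeR adjusted p = 0.562), with a 95% interval from -0.24 to 0.13, a range of change that these libraries do not tell from none. With library totals alone Dnm1l was higher, at 0.62 (adjusted p = 6.76e-05), or -0.12 once that scaling's median of all genes is subtracted. Dnm1l shares 243 exon bases with the antisense gene Gm49521 in GENCODE M21.

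Mff (Entrez 75734, chr1:82724890-82752390, plus strand), a main receptor of DRP1, was at 123.0, 117.7, 126.0 and 113.9 CPM in the controls and at 94.0, 88.6, 90.0 and 85.9 CPM in the libraries labelled knockout. Every library labelled knockout was below every control. Mff fell by 25.4%, from 120.2 ± 5.39 to 89.6 ± 3.4 CPM (SD, n = 4 each), which is a log2 fold change of -0.42 (SE 0.062, edgeR adjusted p = 2.42e-04), and its sign flipped with library totals alone, at 0.25 (adjusted p = 0.00201). Among the 9 genes Mff has the most protein-coding transcripts, 10 of 16, and these were counted together; 195 of its exon bases are shared with C430014B12Rik on the other strand.

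Fis1 (Entrez 66437, chr5:136953275-136966234, plus strand) encodes a small tail-anchored outer-membrane protein. It was at 78.5, 81.0, 89.9 and 72.1 CPM in the controls and at 65.7, 56.2, 69.6 and 67.5 CPM in the libraries labelled knockout. The groups did not overlap, though the lowest control and the highest knockout value were near each other. Its log2 fold change of -0.31 (SE 0.090) did not pass the test (edgeR adjusted p = 0.0132). The call is near the threshold: it passed with RLE size factors (-0.36, adjusted p = 0.00807), in DESeq2 (-0.36, adjusted p = 0.00205), without control 4 (adjusted p = 0.00797) and without knockout 3 (adjusted p = 0.00736), and with library totals alone the sign flipped, to 0.36 (adjusted p = 0.000936).

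The MiD proteins, encoded by Mief1 and Mief2, hold DRP1 at the outer membrane, and of their genes the first was called higher while the other did not pass the test. Mief1 (Entrez 239555, chr15:80234080-80253371, plus strand) was at 28.4, 27.8, 30.3 and 27.7 CPM in the controls and at 34.6, 31.6, 37.4 and 39.0 CPM in the libraries labelled knockout, behind which stand 351 to 439 and 689 to 982 counts. All 4 libraries labelled knockout were above all 4 controls. Mief1 was higher by 24.9%, at 28.5 ± 1.2 and 35.6 ± 3.28 CPM (SD, n = 4 each), with a log2 fold change of 0.32 (SE 0.079, edgeR adjusted p = 0.00568). This call rests on the setting: it was lost with RLE size factors (0.28, adjusted p = 0.0151), in DESeq2 (0.28, adjusted p = 0.0133) and without any 1 of control 1, 2 or 4 or knockout 1, 3 or 4 (adjusted p from 0.0138 to 0.0314). Mief1 shares 213 exon bases with AC140267.1, a protein-coding gene on the same strand in GENCODE M21, and how reads of that stretch were counted is not given in the sources used here.

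Mief2 (Entrez 237781, chr11:60728398-60732951, plus strand) was at 98.2, 102.3, 96.6 and 90.0 CPM in the controls and at 97.8, 92.4, 101.5 and 97.5 CPM in the libraries labelled knockout. The groups overlapped almost wholly, at means of 96.8 ± 5.13 and 97.3 ± 3.75 CPM (SD, n = 4 each). The log2 fold change was 0.0074 (SE 0.064, 95% interval -0.14 to 0.15, edgeR adjusted p = 0.93). With RLE size factors it was -0.037 (adjusted p = 0.663), while Mief2 was called higher with totals that leave out the 20 most abundant genes (0.31, adjusted p = 0.000862) and with library totals alone (0.68, adjusted p = 5.06e-06). Once the median of all genes is subtracted, library totals alone put it at -0.058.

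Mtfp1 (Entrez 67900, chr11:4091481-4095431, minus strand), the inner-membrane fission factor, had the largest change of the 9 genes. It was at 42.7, 50.4, 50.5 and 45.6 CPM in the controls and at 18.8, 18.9, 11.4 and 13.4 CPM in the libraries labelled knockout. The libraries labelled knockout fell in a lower pair and a higher pair, both well under the controls. Mtfp1 fell by 66.9%, from 47.3 ± 3.84 to 15.6 ± 3.81 CPM (SD, n = 4 each), which is a log2 fold change of -1.60 (SE 0.16, 95% interval -1.95 to -1.25, edgeR adjusted p = 1.66e-05), and it stayed lower with library totals alone, at -0.92 (adjusted p = 0.000798). Only 486 of the 14012 genes were at or below it in the order of log2 fold changes.

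Of these genes, 2 were called lower under every scaling run, Mfn1 and Mtfp1, and the order of the 9 was kept while the whole set shifted. The median of all genes was at 0.065 under TMM, 0.37 with library totals that leave out the 20 most abundant genes, a scaling added after the data were seen, and 0.73 with library totals alone. Once that median was subtracted, library totals alone gave log2 differences of -1.66 for Mtfp1, -1.02 for Mfn1, -0.75 for Mfn2, -0.69 for Opa1, -0.49 for Mff, -0.38 for Fis1, -0.12 for Dnm1l, -0.058 for Mief2 and 0.26 for Mief1. Under that scaling 60.6% of all genes were called higher and 6.23% lower.

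**Figure D2:**
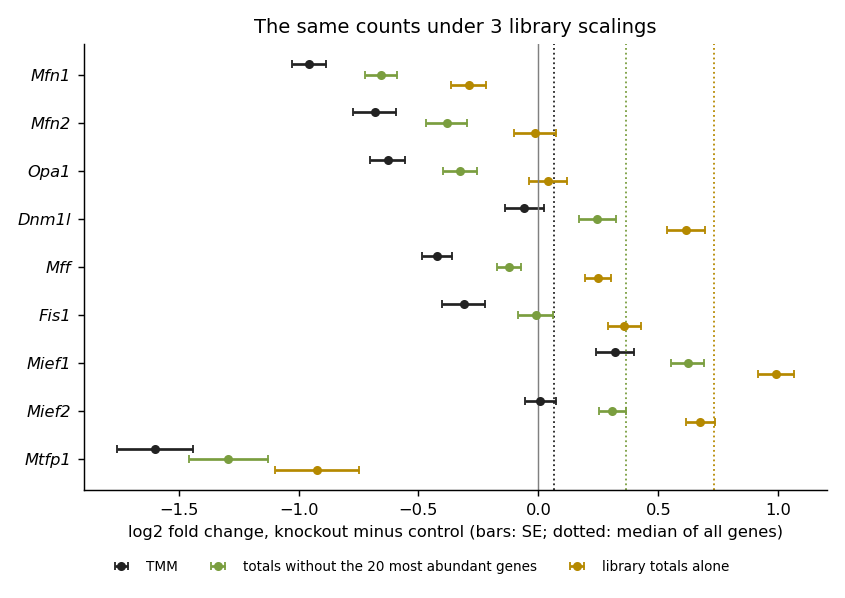
The x axis is the log2 fold change, libraries labelled knockout minus controls, for each gene on the y axis; points are edgeR estimates with SE bars under 3 library scalings, and dotted lines mark the median of all genes (0.065, 0.37 and 0.73). The order of the genes is kept as the estimates shift to the right, Mfn1 and Mtfp1 stay below 0, Dnm1l is above 0 with totals that leave out the 20 most abundant genes (0.25), and Opa1, Mff and Fis1 are above 0 with library totals alone.

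Ratios between genes within a library do not depend on scaling, and 4 of them were computed from counts per exon kilobase. The log2 ratio of Mfn1 to Mfn2 was -1.65, -1.45, -1.55 and -1.57 in the controls and -1.87, -1.95, -1.76 and -1.73 in the libraries labelled knockout. Per kilobase, Mfn1 was thus at 0.340 of Mfn2 in controls and 0.282 in libraries labelled knockout, a log2 difference of -0.27 (exact permutation test, two-sided, p = 0.0286, adjusted p = 0.0381 over 4 ratios), so Mfn1 was lower relative to its paralog.

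The ratio of Opa1 to Dnm1l, between an inner-membrane fusion GTPase and the fission GTPase, was 1.01, 1.03, 0.960 and 1.13 in the controls and 0.730, 0.673, 0.690 and 0.673 in the libraries labelled knockout. The 2 genes had been level per kilobase in control muscle, and Opa1 stood below Dnm1l in every library labelled knockout. On the log2 scale the difference was -0.57, from 0.041 ± 0.099 to -0.53 ± 0.055 (SD, n = 4 each; exact permutation p = 0.0286, adjusted p = 0.0381). Mief1 to Mief2 was at 0.143, 0.135, 0.155 and 0.152 in the controls and at 0.175, 0.169, 0.182 and 0.199 in the libraries labelled knockout, a log2 difference of 0.31 (exact permutation p = 0.0286, adjusted p = 0.0381). The ratio of Mff to Fis1 overlapped between groups, at log2 means of -0.20 ± 0.084 and -0.31 ± 0.14 (SD, n = 4 each; exact permutation p = 0.257). As a description chosen after the values were seen, the log2 ratio of Mfn2 to Opa1 differed by -0.056 and overlapped between the groups. Among the ratios of all pairs of the fusion and fission genes, most stood apart between the groups. Besides Mfn2 to Opa1, the groups overlapped only for Mfn2, Opa1, Mff and Dnm1l to Fis1, and for Dnm1l to Mief1 and to Mief2. A ratio that stood apart was therefore the common outcome among these genes.

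**Figure D3:**
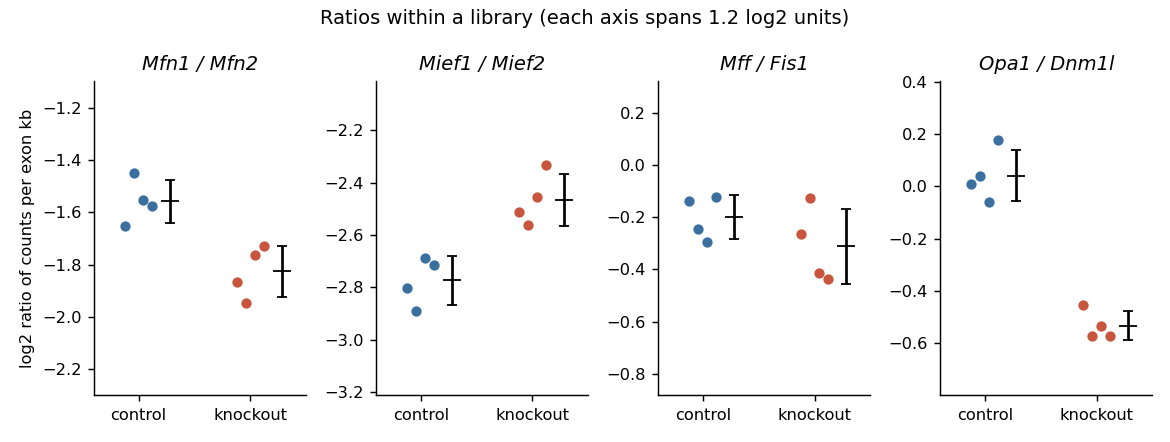
Each panel plots 1 log2 ratio of counts per exon kilobase, with 1 point per library (4 control in blue, 4 labelled knockout in red), the mean as a bar and 1 SD as whiskers; every y axis spans 1.2 log2 units. The groups stand apart for Mfn1 to Mfn2, Mief1 to Mief2 and Opa1 to Dnm1l and overlap for Mff to Fis1. They also stand apart for most of the pairs of fusion and fission genes that are not plotted.

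Levels between genes were compared per exon length in the deposited FPKM, which carry the authors' size factors and not TMM. In control muscle Mfn2 was the most abundant at 184 ± 3.51 FPKM (SD, n = 4), followed by Fis1 at 73.6, Mff at 63.9, Mfn1 at 62.5, Mief2 at 38.8, Mtfp1 at 34.2, Opa1 at 26.1, Dnm1l at 25.4 and Mief1 at 5.66. The libraries of Fis1 and Mff, of Mff and Mfn1, of Mief2 and Mtfp1, and of Opa1 and Dnm1l overlapped across the controls. Within single controls, Fis1 was above Mff and Mief2 above Mtfp1 in all 4. Mfn2 was 32.5 times as abundant as Mief1 per length in controls, and 16.2 times in libraries labelled knockout. There, Mfn2 was still first at 111 ± 11.3 FPKM, and Mief2 (37.8) stood above Mfn1 (31.3), Dnm1l (23.7) above Opa1 (16.4), and Mtfp1 (10.9) above only Mief1 (6.86). No neighbours in that order overlapped across the libraries.

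**Figure D4:**
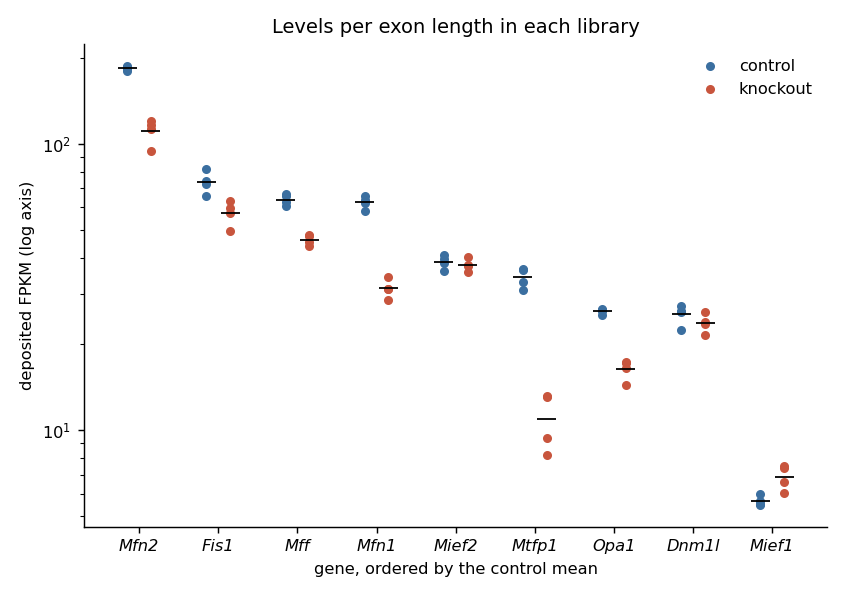
The y axis is the deposited FPKM on a log axis and the x axis the 9 genes in order of their control mean; each point is 1 library (4 control in blue, 4 labelled knockout in red) and each bar a group mean. Mfn2 is highest in both groups, from 184 to 111 FPKM, and Mtfp1 drops from 34.2 to 10.9 FPKM.

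The lists of genes around this machinery held genes called in both directions under TMM scaling, as did all genes, of which 23.6% were called higher and 21.1% lower. The lists of 7 to 13 genes are described by their counts, and nothing is read from a share near those values. Of 13 measured genes for the processing of OPA1 and outer-membrane fusion cofactors, 4 were called higher and 3 lower, and the median log2 fold change was 0.075. Oma1, the stress-activated protease that cleaves OPA1, was at 28.2 to 34.9 CPM in the controls and at 15.5 to 19.1 CPM in the libraries labelled knockout, a log2 fold change of -0.89 (SE 0.093). Yme1l1, which encodes the other OPA1 protease and is given here for its role, was level at 92.2 ± 7.24 and 93.1 ± 7.15 CPM (SD, n = 4 each). Spg7, a subunit of the matrix m-AAA protease, was lower (-0.66), while Afg3l2, another of its subunits, was higher (0.43). Phb2, an inner-membrane prohibitin, was higher (0.55), while the prohibitin gene Phb was lower (-0.51). Phb2 shares 155 exon bases with Gm23547 on its own strand and 141 with Gm15884 on the other strand. Msto1, named as a fusion cofactor, was higher (0.92), but it shares 1038 exon bases with Gon4l on the other strand, and strand use in the counting is not stated in the sources used here.

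Of 13 cofactors and regulators of fission, 4 were higher and 1 lower, with a median of 0.17. The lower one had the largest change in any of these lists of mitochondrial genes. Gdap1, an outer-membrane glutathione S-transferase-like protein that promotes fragmentation, was at 45.2, 36.9, 49.4 and 26.6 CPM in the controls and at 3.63, 5.54, 3.72 and 1.99 CPM in the libraries labelled knockout. The groups were far apart, with a log2 fold change of -3.41 (SE 0.29, edgeR adjusted p = 5.68e-06), and Gdap1 was the gene of its list called lower with library totals alone (-2.73). Dnm2, a dynamin that acts in endocytosis and has been placed at late mitochondrial constriction, was at 53.7 to 60.8 CPM in the controls and at 106 to 121 CPM in the libraries labelled knockout (log2 fold change 1.01); it shares 207 exon bases with Tmed1 on the other strand. Spire1, an actin nucleator, and Akap1, which anchors protein kinase A at the outer membrane, were higher at 0.90 and 0.81. Mtfr2 was also called higher (1.74), from only 0.146 to 0.483 CPM, and the call was lost in DESeq2 (adjusted p = 0.0251) and without any 1 of control 2 or 4 or knockout 1, 2, 3 or 4 (adjusted p from 0.0111 to 0.0198).

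Of 7 genes that move mitochondria along microtubules and actin, 3 were lower and 1 higher, with a median of -0.16. The lower genes were the adaptors Trak1 (-0.99) and Trak2 (-0.92), which link mitochondria to kinesin, and Rhot2 (-0.96), a Miro GTPase of the outer membrane that shares 1307 exon bases with Gm20683 on its own strand. Kif5b, the kinesin heavy chain, was higher (0.42). Trak2 was also the gene whose log2 CPM over the 8 libraries followed that of Mfn1 most closely (Pearson r = 0.997), ahead of Pank4 (0.997) and Lrrc20 (0.997). For Mief1 the closest were Smad1 (0.982), Ttc9c (0.981) and Tsc22d4 (0.981). The libraries fall in 2 groups, so r mostly reads the difference between groups: of 12463 genes compared, 2115 had r over 0.9 with Mfn1 and 787 with Mief1.

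Cristae are shaped by the MICOS complex together with OPA1, and of 11 genes of MICOS and its bridge to the outer membrane 5 were lower and 3 higher, with a median of -0.26. Those with the largest changes were Apoo (-1.06) and Chchd3 (-0.63), MICOS subunits that were lower, and Chchd6 (1.03), a MICOS subunit, and Mtx2 (0.81), a metaxin of the outer-membrane sorting machinery, which were higher. Cardiolipin, the inner-membrane lipid on which OPA1 acts, is made and supplied by the products of 7 listed genes, of which 3 were higher and 1 lower (median -0.14). Prelid1 (0.77), which carries phosphatidic acid, Tamm41 (0.67), which makes CDP-diacylglycerol, and Crls1 (0.55), the cardiolipin synthase, were higher. Ptpmt1, the phosphatase before it, was lower (-0.83) and shares 1657 exon bases with Kbtbd4 on the other strand. The call of Crls1 was lost without knockout 1 (adjusted p = 0.0111) or knockout 4 (adjusted p = 0.0126).

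Mitophagy was covered by 12 genes, of which 3 were called higher and 3 lower (median -0.034). Sqstm1, the cargo adaptor p62, was higher at 665 ± 47.4 and 1357 ± 148 CPM (SD, n = 4 each; log2 fold change 1.03), and Park2, which encodes Parkin, was higher (0.51). Pink1, the kinase that activates Parkin, was lower (-0.70), as was the receptor gene Fundc1 (-0.86). Among 8 biogenesis factors, 2 were called higher and 3 lower (median 0.13). Esrrg, a nuclear receptor of oxidative muscle, was at 8.56, 20.8, 15.7 and 23.5 CPM in the controls and at 112, 103, 114 and 109 CPM in the libraries labelled knockout (log2 fold change 2.67, SE 0.24), while the related Esrra was lower (-0.85). Pprc1, a PGC-1 family coactivator, was higher (0.60) and Tfam, which packages mitochondrial DNA, was lower (-0.41). Ppargc1a, which encodes PGC-1α, was called lower (-0.54, edgeR adjusted p = 0.00905) although its groups overlapped. The call was lost without any 1 of control 2, 3 or 4 or knockout 1, 3 or 4 (adjusted p from 0.0187 to 0.0294). Of this list, 2 genes and not 3 were called lower with upper-quartile factors, a minimum mean of 10 CPM or the adipocyte covariate.

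With library totals alone, 60.6% of all genes were called higher and 6.23% lower. Under it the counts were 9 higher and 0 lower for OPA1 processing and fusion cofactors, and 12 and 1 for cofactors and regulators of fission. They were 4 and 2 for transport, 7 and 1 for MICOS, 6 and 0 for cardiolipin, 9 and 0 for mitophagy, and 6 and 0 for biogenesis.

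**Figure D5:**
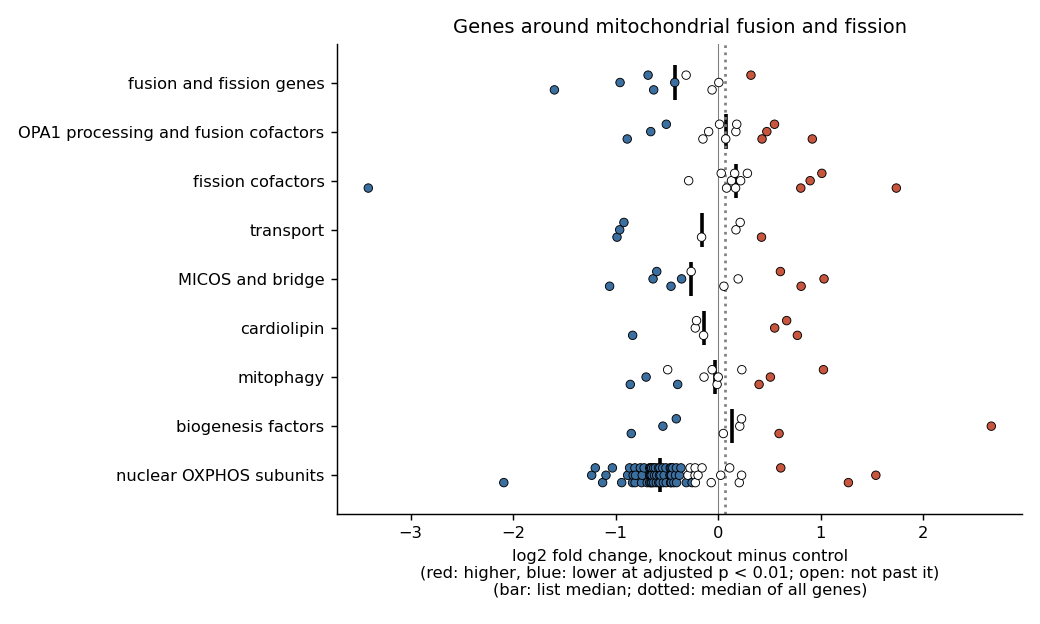
Each point is 1 gene of a list, placed by its log2 fold change under TMM (libraries labelled knockout minus controls, x axis); red is higher and blue lower at adjusted p under 0.01, open points did not pass, bars are list medians and the dotted line is the median of all genes (0.065). Gdap1 is the far left point, at -3.41, and Esrrg the far right one, at 2.67; with library totals alone, where 60.6% of all genes are called higher, most genes of these lists outside OXPHOS are called higher.

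Nuclear genes for subunits of oxidative phosphorylation (OXPHOS) gave a comparison within the mitochondrion. Of 77 measured, 62 were lower and 3 higher under TMM, beside 21.1% and 23.6% of all genes, and their median log2 fold change was -0.57. With library totals alone 24 were higher and 6 lower, beside 60.6% and 6.23% of all genes. Those with the largest changes were Cox7a1 (-2.09), the muscle form of a cytochrome c oxidase subunit, Cox8a (1.54), Cox6a1 (1.27) and Ndufc1 (-1.23). The call of Cox6a1, whose groups overlapped, was lost without any 1 of control 1, 2 or 3 or knockout 1, 2 or 4 (adjusted p from 0.0192 to 0.0281). The scaling of libraries cancels in the difference from the OXPHOS median, and by it Opa1 was at -0.060, Mfn2 at -0.12 and Mff at 0.15 on the log2 scale, while Mtfp1 was at -1.03 and Mfn1 at -0.39. Cox7a1 was the 1 OXPHOS gene that lay below Mtfp1, and 6 lay below Mfn1. Dnm1l and Mief2 were at 0.51 and 0.58, and 70 of the 77 OXPHOS genes lay below each, as did 74 for Mief1 (0.89).

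Under TMM scaling, the summed markers of some other cells of muscle also differed between the groups. The summed CPM was 248 to 372 in controls and 179 to 202 in libraries labelled knockout for 4 endothelial markers, 610 to 963 and 333 to 457 for 4 fibroblast markers, 18.1 to 44.3 and 45.7 to 76.4 for 4 macrophage markers, and 3.07 to 4.87 and 6.13 to 7.75 for 2 satellite cell markers. For 5 adipocyte markers the sums overlapped, at 29.3 to 852 and 346 to 1480, as they did for 3 Schwann cell markers, at 33.4 to 114 and 54.6 to 90.0. No marker was at 0 in all libraries. Under TMM, the edgeR test called lower 4 of 4 endothelial and 2 of 4 fibroblast markers, beside 21.1% of all genes. It called higher 1 of 4 macrophage and 1 of 2 satellite cell markers, beside 23.6% of all genes. The fibroblast markers ran from a log2 fold change of -1.92 to 0.42. With library totals alone, 0 of the 4 endothelial markers were called. Under it, 1 fibroblast marker was higher and 1 lower, and 4 macrophage, 2 satellite cell and 1 Schwann cell markers were higher. Of all genes, 60.6% were called higher and 6.23% lower by that scaling. The part of these cells in the values of the fusion and fission genes was not tested, apart from a fit with the adipocyte markers as a covariate. There Mfn1 was at -0.92, Mfn2 at -0.67, Opa1 at -0.63, Mff at -0.40, Mtfp1 at -1.60 and Mief1 at 0.36, all past the threshold, and Fis1 was at -0.23 (adjusted p = 0.054).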

How the data were processed

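Polyadenylated RNA of QF muscle was sequenced in 8 libraries (NEBNext Ultra II Directional kit). The authors trimmed reads (bcl2fastq 2.20.0.422, cutadapt), mapped them to GRCm38 with STAR 2.5.4b, and left out duplicate, chimeric and multimapping reads, reads with a mapping quality under 10, and genes with under 50 reads in all. The deposited table holds raw counts of read pairs in exons per gene, FPKM values that the authors scaled by size factors, and each gene's exon length; its strand setting is not given in the sources used here. Its columns of the authors' own DESeq2 1.32.0 comparison (fold changes and p-values) were not used.

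Counts of all 14012 genes were tested with edgeR 4.0.16 in R 4.3.3 (TMM, quasi-likelihood, group as the only term, Benjamini-Hochberg over all genes, adjusted p under 0.01); the SE is the log2 fold change over the square root of F. CPM are TMM-scaled, and log2 CPM used a prior count of 2. Ratios were tested by an exact permutation test over 70 assignments, with adjusted p under 0.05 as the threshold. The dispersion gave a biological coefficient of variation of 0.16, and chi-square per degree of freedom between replicates was 17.2 to 42.7, so no library was a repeat of another.

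Alternatives were RLE and upper-quartile factors, library totals alone, DESeq2 1.42.0, filters on low counts, a replicate block (limma 3.58.1 for ratios), an adipocyte covariate, a threshold of 0.05, and each library left out; totals without the 20 most abundant genes were added after the data were seen. The script was tested on simulated data. All 9 genes were named in full. Of each list, the genes past the threshold were named where there were 5 or fewer, and otherwise the 4 with the largest change. Yme1l1, Afg3l2 and Phb were named besides these. The members, lists and motifs were chosen with earlier results of these data known. Pld6, listed with the fusion cofactors, was not found by symbol among the 14012 genes. Upstream sequences are from RefSeq (GRCm38.p6), and exon overlaps from GENCODE M21.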

Additional observations from a re-analysis of the deposited data

How the results depend on the processing

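Library scaling was the choice that moved most values. With library totals alone, 5 of the 9 genes were called higher and 2 lower, beside 60.6% and 6.23% of all genes. The log2 fold change turned positive for Opa1 (0.041), Dnm1l (0.62), Fis1 (0.36) and Mff (0.25), as it did for Spg7 (0.0059), Chchd3 (0.036), Ppargc1a (0.13) and Tfam (0.26). This scaling places the median of all genes at 0.73. The same scaling gave 9 higher and 0 lower genes for OPA1 processing and fusion cofactors, and 12 higher cofactors and regulators of fission. It gave 4 higher transport genes, 7 higher and 1 lower MICOS genes, 6 and 0 for cardiolipin, 9 and 0 for mitophagy, 6 and 0 for biogenesis, and 24 and 6 for OXPHOS. Totals without the 20 most abundant genes called 2 of the 9 higher, beside 5638 of 13992 genes tested, and put Dnm1l at 0.25. RLE size factors and DESeq2 each called 0 of the 9 higher and 6 lower, with Mief1 lost and Fis1 gained (Mief2 at -0.037 in both). Each called 2 cofactors and regulators of fission lower. A minimum mean of 10 CPM put Dnm1l at 0.0055 (adjusted p = 0.953). With each library left out, the count of the 9 called higher ranged from 0 to 1 and Mief2 from -0.046 to 0.035. The count of lower cofactors and regulators of fission ranged from 1 to 2 (2 without knockout 3). That of higher OXPHOS genes ranged from 1 to 2, against 3 in all libraries (1 without control 1, knockout 1 or knockout 4). Mfn1 (-1.03 to -0.93), Mfn2 (-0.74 to -0.63), Opa1 (-0.68 to -0.59), Mff (-0.46 to -0.40) and Mtfp1 (-1.72 to -1.51) stayed past the threshold without any 1 library. The 4 ratios kept their direction and their side of the threshold under every alternative run for them.

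Groups share replicate numbers, but nothing says that a number marks a litter or a day, so same-numbered libraries were not treated as pairs in the main fit. They deviated together with correlations of 0.118, 0.00314, 0.42 and 0.138, and 6 of 8 libraries correlated best with their own number, so shared structure is not excluded. A fit with the replicate block called 6123 genes against 6265, and of the 9 genes again 1 higher and 5 lower (Mfn1 -0.96, Mief1 0.32, adjusted p = 0.00826). Under the block the call of Mtfr2 was lost (adjusted p = 0.0199). Lower MICOS genes went from 5 to 4 and lower OXPHOS genes from 62 to 61. Higher muscle fibre markers went from 1 to 2 and higher adipocyte markers from 0 to 1. The ratio differences under the block were -0.27, 0.31, -0.11 and -0.57. Mtfr2 was at under 1 CPM in both groups.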
